A study of Mus musculus with 2 samples.

Results

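Semaphorins, their plexin and neuropilin receptors, Slits and their Robo receptors, netrins and the netrin receptors Dcc and Unc5 are described here as 1 group of axon guidance genes, in single cells of the embryonic mouse peripheral retina. Members were all genes present in both matrices whose symbol begins with Sema and a digit, with Plxn, or with Ntn and a digit, together with Nrp1, Nrp2, Slit1 to Slit3, Robo1 to Robo4, Unc5a to Unc5d and Dcc. That gave 50 of 32285 genes, of which 47 are protein coding and 3 are antisense transcripts of Plxna4. In the kept cells 48 of them had at least 1 UMI (a unique molecular identifier, which marks 1 captured RNA molecule). In retinal ganglion cell-like (RGC-like) cells 27 reached 50 UMIs over both libraries, and these are described by role, while members below that are described where another class held at least 50 of their UMIs.

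Ganglion cells are the projection neurons of the retina. Their axons grow along the inner surface of the eye, leave it at the optic disc and either cross or stay on their own side at the optic chiasm. Slits bind Robo receptors and mostly repel, netrins attract through Dcc and repel through Unc5 receptors, and semaphorins act through plexins, with neuropilins as the binding co-receptors of most secreted ones. In this tissue netrin at the optic disc is known to guide Dcc-bearing axons out of the eye, Robo2 to keep axons in their layer, and Nrp1 and Sema6d to take part in crossing at the chiasm. Albinism is known to reduce the uncrossed projection.

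The study examined the rim of the retina in pigmented and albino mouse embryos. The pigmented group was 1 library with the strain label Tyrc2j, and the albino group was 1 library with the strain label Swizz ICR. Both came from E13.5 embryos (the embryonic day), 3 pooled per library, that carried an α-Cre transgene, active in the peripheral retina, and a TdTomato reporter, and the sorted TdTomato-positive cells were profiled. Tyrc2j is also the name of an albino allele of tyrosinase, which goes against the title of the pigmented library, and the titles were followed here. Pigmentation, strain, pool of embryos and library cannot be told apart, no test between groups was possible with 1 library each, and intervals are 95% exact intervals that cover counting error only.

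The pigmented matrix held 69965728 UMIs in 6089 barcodes, the albino matrix held 46271969 in 3676, and 8 barcodes were in both. After filtering, 5670 and 3441 cells remained, with medians of 10295.5 and 11163 UMIs. Clustering without the guidance genes gave 24 clusters, of which 21 took a class name from marker lists. RGC-like cells numbered 549 in the pigmented library (9.68%) and 687 in the albino library (19.97%), and all 12 ganglion cell markers were detected in them. Isl1, for example, stood at 1125 and 1046 CPM (UMIs of the gene per 1000000 UMIs), against 3.45 and 8.1 CPM in progenitor-like (RPC-like) cells. Markers of the classes before them summed in RGC-like cells to 1804 and 1315 CPM for 11 neurogenic genes and 178 and 158 CPM for 10 progenitor genes, all of them detected. Markers of other classes summed to 117 and 93.2 CPM for 8 photoreceptor genes, 586 and 580 CPM for 7 amacrine or horizontal genes and 8.53 and 7.17 CPM for 7 endothelial genes, with Cdh5, Tek and Emcn at 0 in both libraries. Throughout, a level is the CPM of UMIs summed over a class, a ratio is of such levels, and paired values are pigmented first and albino second.

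Summed over all members, the level was 936 and 939 CPM in RGC-like cells. It was 318 and 310 CPM in RPC-like cells, 383 and 389 CPM in ciliary margin-like (CMZ-like) cells and 524 and 533 CPM in neurogenic-like cells, which express genes of precursors that are becoming neurons. Photoreceptor-like cells stood at 874 and 831 CPM, amacrine or horizontal-like cells at 1052 and 1184 CPM and mesenchyme-like cells at 817 and 698 CPM. The summed level was thus higher in each neuron class than in the progenitor, margin and neurogenic classes of both libraries, and RGC-like cells were not the highest. Much of these sums came from Dcc and Robo2. In RGC-like cells Dcc stood at 223 and 194 CPM and Robo2 at 148 and 152 CPM. In photoreceptor-like cells Dcc stood at 186 and 190 CPM and Robo2 at 284 and 249 CPM. Sums without them were not compared. In these sums fewer expressing cells and less RNA per cell cannot be told apart.

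**Figure D1:**
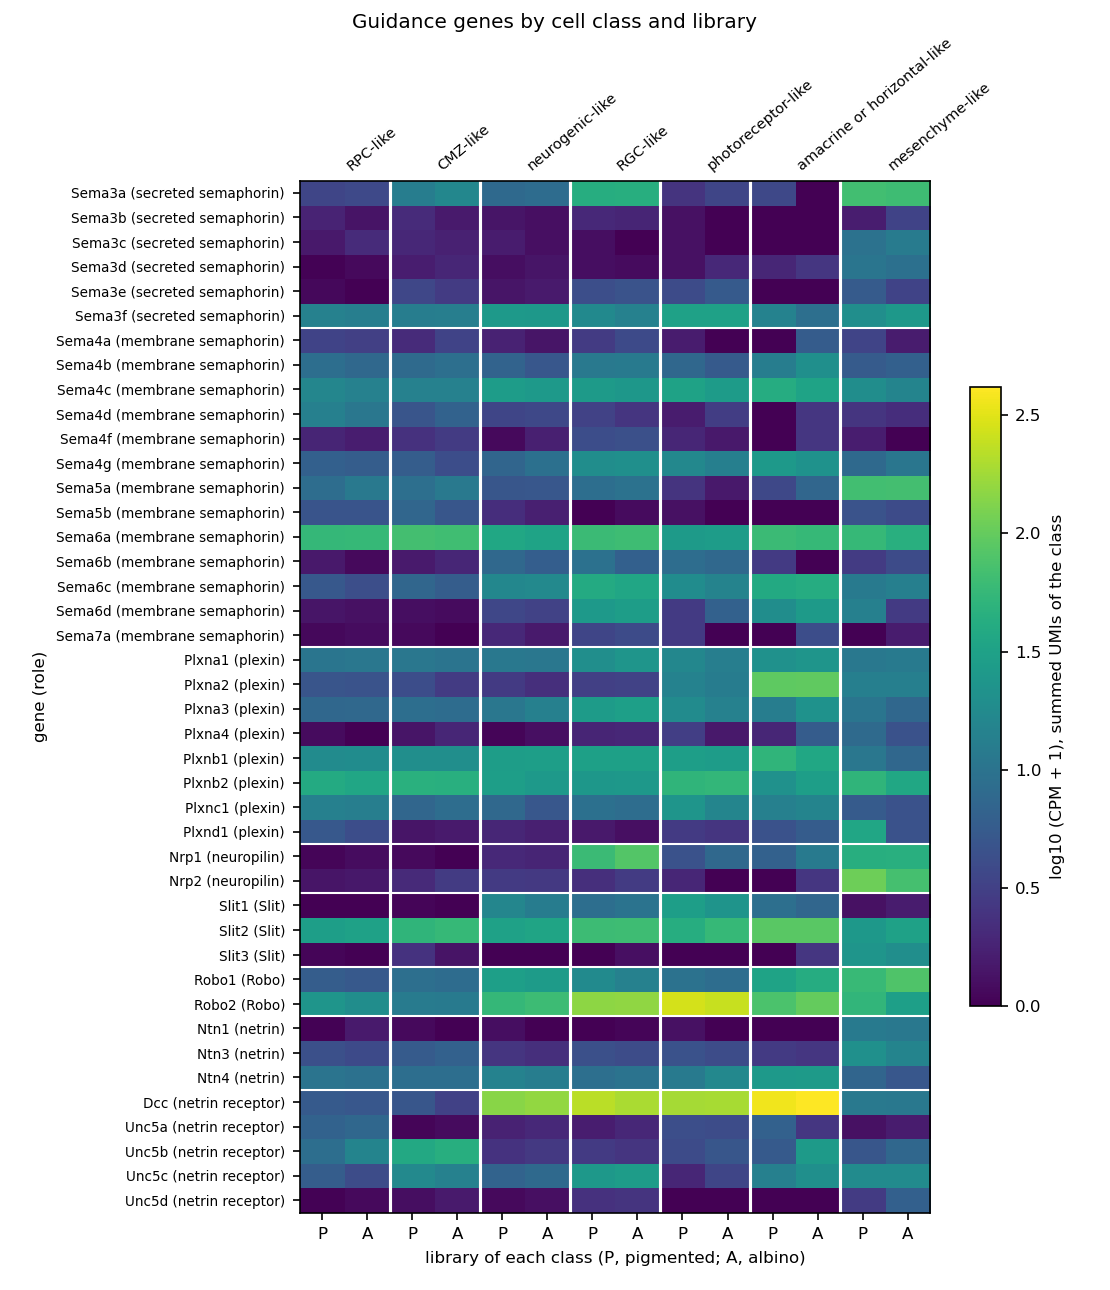
Level of each guidance gene that reached 50 UMIs in the libraries together (rows, grouped by role), as log10 of CPM plus 1 (colour) of the UMIs summed over a class, for 7 classes with the pigmented (P) and albino (A) library side by side. Along its row Dcc is brighter in the neurogenic-like and neuron classes than elsewhere, Nrp1 and Sema3a are brightest in RGC-like and mesenchyme-like cells, and Unc5b is brightest in CMZ-like cells.

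Compared with progenitors, ganglion cells carried more of many guidance genes. Of 34 members with at least 20 UMIs over both classes in each library, 16 were at least 2 times higher in RGC-like than in RPC-like cells in both libraries, 5 were at most 0.5 times as high and 13 were neither. Over all 12858 genes tested in the same way 15.2% were higher and 20.8% were lower. The 16 were the receptors Dcc, Unc5c, Robo1, Robo2, Nrp1 and Plxna3, the ligands Slit1, Slit2, Sema3a and Sema3e, and the membrane semaphorins Sema4f, Sema4g, Sema6b, Sema6c, Sema6d and Sema7a. The 5 were Unc5a, Unc5b, Plxnd1, Sema4d and Sema5b. The median log2 ratio of the tested members was 0.90 and 0.93, and that of all tested genes was −0.16 and −0.15. The classes were cut from RNA of the same cells, so these ratios are descriptions. Mitochondrial, ribosomal protein and haemoglobin genes took 16.6% and 16.3% of UMIs in RGC-like and 27.7% and 28.9% in RPC-like cells, and scaling without them lowers every log2 ratio by 0.21 and 0.24, which takes Slit2 below the threshold and leaves 15 higher.

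**Figure D2:**
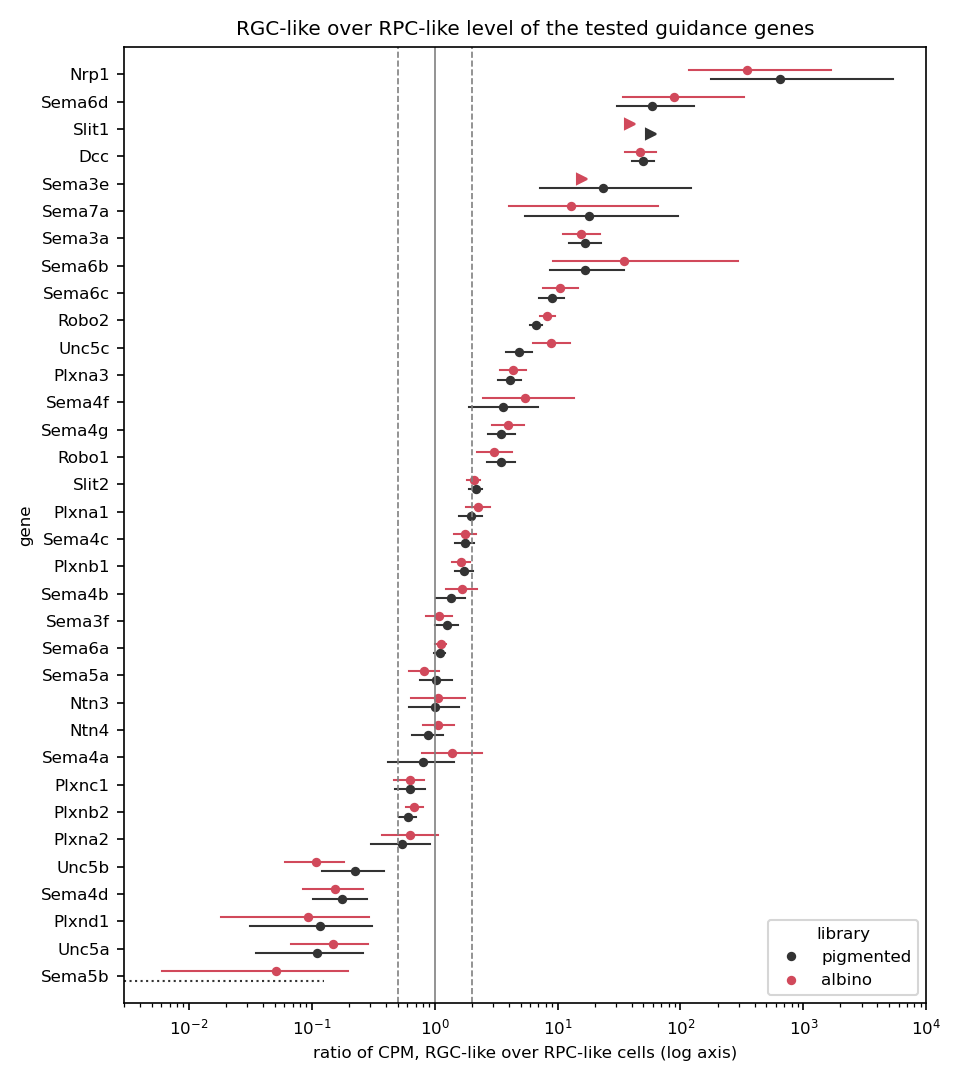
Ratio of the CPM in RGC-like over RPC-like cells on a log axis for the 34 tested members, with 95% exact counting intervals, in the pigmented and the albino library. Triangles mark lower bounds where RPC-like cells had no UMI, the dotted line is the interval of a ratio of 0 (Sema5b in the pigmented library), and dashed lines mark ratios of 0.5 and 2. Nrp1 has the highest measured ratios, 645 and 347, and Slit2 and Plxna1 lie next to the line at 2.

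The stretch before the transcription start is shown for 4 members that were higher in RGC-like cells, to set their letters beside the levels. RefSeq starts on GRCm38.p6 were found for 38 of the 50 members, with 51 windows, and for 14 of the 16. In the 250 bases before each start 4 motifs were searched, each of which reads the same on both strands: CAGCTG, a form of the E-box that proneural factors bind, TAATTA, a homeodomain core, ATTAAT, an AT-rich core that can overlap TAATTA, and the palindromic Ebf site. CAGCTG stood in 17.6% of member windows and 13.0% of all 32851 windows. Counted by gene it stood in 4 of the 14 and in 9 of the 38 members, and the share of all genes by gene was not counted. TAATTA stood in 1.96% of member windows and 4.84% of all, ATTAAT in 1.96% and 4.39%, and the Ebf site in 3.92% (2 of 51 windows) and 0.779%. Of the 14 genes 0 held TAATTA, 1 held ATTAAT and 0 held the Ebf site. Robo2 and Sema7a hold CAGCTG, Sema3e holds ATTAAT and Sema6d holds none of the 4. The windows were picked with the matches known: for a gene with several starts, such as Robo2 with 3, a window with a match came first. A gene without a match was kept only if it was also higher in the later of the RGC-like clusters described below, as Sema6d was. Each window is printed on the gene's strand and ends at the base before the gene's annotated start, with the match in capitals, and a match is a description of letters only.
Robo2 (chr16:74411826-74412075, minus strand): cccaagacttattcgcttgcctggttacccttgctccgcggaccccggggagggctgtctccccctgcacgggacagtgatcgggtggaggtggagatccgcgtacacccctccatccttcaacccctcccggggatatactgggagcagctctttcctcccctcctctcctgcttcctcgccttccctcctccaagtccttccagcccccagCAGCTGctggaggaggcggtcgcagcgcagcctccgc
Sema7a (chr9:57939862-57940111, plus strand): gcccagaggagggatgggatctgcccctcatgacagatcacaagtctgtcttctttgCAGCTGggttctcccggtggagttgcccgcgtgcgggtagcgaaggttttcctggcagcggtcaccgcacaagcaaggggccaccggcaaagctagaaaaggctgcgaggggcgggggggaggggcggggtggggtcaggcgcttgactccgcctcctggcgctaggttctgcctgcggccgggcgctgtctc
Sema3e (chr5:14025026-14025275, plus strand): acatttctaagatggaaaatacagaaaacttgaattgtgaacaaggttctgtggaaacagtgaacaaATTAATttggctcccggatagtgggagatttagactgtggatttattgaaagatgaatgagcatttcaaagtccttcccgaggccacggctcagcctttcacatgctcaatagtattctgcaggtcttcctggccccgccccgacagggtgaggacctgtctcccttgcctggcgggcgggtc
Sema6d (chr2:124089719-124089968, plus strand): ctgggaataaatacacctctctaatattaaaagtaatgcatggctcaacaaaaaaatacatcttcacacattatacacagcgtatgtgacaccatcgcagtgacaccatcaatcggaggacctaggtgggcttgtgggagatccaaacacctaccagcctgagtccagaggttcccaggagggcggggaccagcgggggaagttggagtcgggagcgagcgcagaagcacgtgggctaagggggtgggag

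Among the netrin receptors Dcc, the attractive one, stood at 223 and 194 CPM in RGC-like cells (1779 and 1999 UMIs). RPC-like cells had 4.51 and 4.13 CPM of it, which gives ratios of 49.5 (40.4 to 61.3) and 46.9 (35.7 to 62.8). Dcc was already at 141 and 157 CPM in neurogenic-like cells, so its ratios to those cells were 1.58 and 1.23, short of 2. RGC-like cells were not its highest class, since amacrine or horizontal-like cells had 365 CPM (330.0 to 402) and 415 CPM (366 to 468). To compare shares of cells each cell was thinned to 5870 UMIs, which left out 567 and 390 shallower cells. Then 54.4% and 53.4% of RGC-like cells had a Dcc UMI, against 2.44% and 1.92% of RPC-like cells. Without thinning the shares were 71.2% and 71% and, at the lower median depth of RPC-like cells (9733.5 and 10358 UMIs against 14144 and 14472), 4.24% and 3.48%.

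Unc5c, a repulsive netrin receptor, was at 23.8 and 26.8 CPM in RGC-like and 4.92 and 3.04 CPM in RPC-like cells, with ratios of 4.84 (3.8 to 6.2) and 8.83 (6.3 to 12.7). The other tested Unc5 genes went the opposite way. Unc5b, which also acts in vessels, was at 1.76 and 1.55 CPM in RGC-like and 7.77 and 14.2 CPM in RPC-like cells, with ratios of 0.226 (0.121 to 0.39) and 0.109 (0.0612 to 0.182). Unc5a was at 0.627 and 0.968 CPM against 5.7 and 6.54 CPM, with ratios of 0.11 (0.0351 to 0.264) and 0.148 (0.0685 to 0.286). Unc5d had 11 and 15 UMIs in RGC-like cells and too few in RPC-like cells to be tested. Of the neural retinal classes, which leave out pigment epithelium-like cells, RGC-like cells thus held the highest level of Unc5c in both libraries, while Unc5a and Unc5b were lower there than in progenitors.

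No netrin ligand was called higher in ganglion cells than in progenitors. Ntn1, the netrin of the optic disc and the neural midline, had 0 and 1 UMIs in RGC-like cells. A chosen floor of 3 UMIs would be 0.376 CPM in the pigmented library. Its highest class was mesenchyme-like cells, at 11.1 and 10.2 CPM (36 and 17 UMIs). Ntn4, a netrin of basement membranes, was at 8.03 and 9 CPM in RGC-like and 9.06 and 8.41 CPM in RPC-like cells, and the intervals of its ratios included 1. Amacrine or horizontal-like cells had the most Ntn4, at 25.3 and 25.4 CPM. Ntn3 was at 3.39 and 3.1 CPM in RGC-like and 3.36 and 2.88 CPM in RPC-like cells, but its exons overlap those of Tbc1d24 on the same strand, so its counts are uncertain.

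Robo2, a Slit receptor, was at 148 and 152 CPM in RGC-like and 22 and 18.3 CPM in RPC-like cells. The ratios were 6.7 (6.02 to 7.46) and 8.29 (7.22 to 9.54), and against neurogenic-like cells, at 55.1 and 62 CPM, they were 2.68 and 2.44. The gene lies at chr16:73891839-74411825 (GRCm38, minus strand). Photoreceptor-like cells had a higher level still, 284 CPM (266 to 302) and 249 CPM (227 to 272), and the intervals of the RGC-like level, 148 CPM (139 to 156) and 152 CPM (144 to 159), did not overlap theirs. At equal depth 54.6% and 55.1% of RGC-like cells had a Robo2 UMI, against 12.2% and 9.68% of RPC-like cells, and without thinning the shares were 82.1% and 80.9% and 19.7% and 17.3%. Robo2 was therefore found in most ganglion cells of both libraries, and most strongly in another neuron class.

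Robo1 was at 16.8 and 13.3 CPM in RGC-like and 4.88 and 4.36 CPM in RPC-like cells, with ratios of 3.45 (2.65 to 4.49) and 3.04 (2.21 to 4.23). It was at 29 and 26.4 CPM in neurogenic-like cells, above the RGC-like level, with RGC-like over neurogenic-like ratios of 0.58 (0.472 to 0.711) and 0.503 (0.401 to 0.631). Among RPC-like, neurogenic-like and RGC-like cells Robo1 was thus highest in neurogenic-like cells and Robo2 in RGC-like cells. Amacrine or horizontal-like cells had 31.7 and 41.3 CPM of Robo1. The classes were not traced as a lineage. Robo3, a divergent receptor tied to midline crossing, had 10 and 20 UMIs in RGC-like cells, and Robo4, the endothelial member, had 0 and 0.

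Slit1 and Slit2, the ligands of these receptors, were both found in the ganglion cells. Slit2 was at 61.2 and 63.1 CPM in RGC-like and 28.4 and 30.4 CPM in RPC-like cells, and its ratios, 2.15 (1.91 to 2.43) and 2.07 (1.83 to 2.36), lie just above the threshold and fall below it under 8 of the alternatives tried. Amacrine or horizontal-like cells had 88.7 and 87.4 CPM and CMZ-like cells 50.3 and 56.2 CPM. Slit1 had 63 and 93 UMIs in RGC-like cells, at 7.91 and 9 CPM, and no UMI in 2028 and 1093 RPC-like cells, so it was at least 57.3-fold and at least 38.5-fold higher, taking 3 UMIs per library as the floor. Neurogenic-like cells had 15 and 11.6 CPM and photoreceptor-like cells 28.2 and 21.8 CPM of Slit1. Slit1 was thus found in neurogenic-like cells and neurons and not in progenitors, while Slit2 was found in all of them. Slit3 had 0 and 3 UMIs in RGC-like cells and was highest in mesenchyme-like cells, at 22.4 and 18.5 CPM.

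Nrp1, the neuropilin that binds Sema3a and also a form of vascular endothelial growth factor, had the largest ratios of the members with UMIs in both classes. It lies at chr8:128358604-128503363 (GRCm38, plus strand). Its level was 59.4 CPM (54.1 to 65) and 81 CPM (75.6 to 86.7) in RGC-like cells. RPC-like cells had 2 and 3 UMIs, or 0.092 and 0.234 CPM, which gives ratios of 645 (178 to 5343) and 347 (118 to 1686). Neurogenic-like cells had 1.01 and 0.846 CPM, photoreceptor-like cells 3.56 and 6.58 CPM, amacrine or horizontal-like cells 5.43 and 11.1 CPM and mesenchyme-like cells 42.4 and 43.6 CPM. Among the neural retinal classes Nrp1 was thus close to confined to RGC-like cells in both libraries. At equal depth 21.3% and 30.3% of RGC-like cells had an Nrp1 UMI, against 0.0543% and 0.202% of RPC-like cells, and without thinning 37.7% and 49.6% had one. Nrp2, the neuropilin that prefers Sema3f, had 10 and 19 UMIs in RGC-like cells and was highest in mesenchyme-like cells, with 108 and 69.9 CPM.

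Plxna3, a signalling partner of the neuropilins, was the plexin past the threshold. It was at 26.6 and 29 CPM in RGC-like and 6.53 and 6.7 CPM in RPC-like cells, with ratios of 4.07 (3.28 to 5.07) and 4.32 (3.39 to 5.56). Plxna1 was at 18.8 and 22 CPM against 9.52 and 9.81 CPM, and its ratios, 1.98 (1.59 to 2.45) and 2.24 (1.79 to 2.81), lie on either side of 2. Plxnb1 had ratios of 1.74 and 1.64. Plxnb2 and Plxnc1 were on the progenitor side without reaching 0.5, with ratios of 0.603 and 0.682 and of 0.636 and 0.626. Plxnd1, a receptor of Sema3e known from vessels, had 4 and 3 UMIs in RGC-like and 93 and 40 in RPC-like cells. Plxna4 had 7 and 10 UMIs in RGC-like cells and its antisense transcripts had 0.

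Plxna2 belonged to another neuron class. It was at 2.13 and 2.32 CPM in RGC-like cells and at 91.4 CPM (74.4 to 111) and 95.3 CPM (72.7 to 123) in the 141 and 76 amacrine or horizontal-like cells. The next neural retinal class, photoreceptor-like, had 13.3 CPM (9.73 to 17.9) and 11.6 CPM (7.38 to 17.5). At equal depth 35% and 29.2% of amacrine or horizontal-like cells had a Plxna2 UMI, against 1.68% and 1.38% of RGC-like cells, and without thinning 40.4% and 42.1% against 2.55% and 2.91%.

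Among the secreted semaphorins Sema3a, a repellent that acts through Nrp1 and A-type plexins, was at 42.2 CPM (37.8 to 46.9) and 43.3 CPM (39.4 to 47.5) in RGC-like cells. RPC-like cells had 2.53 and 2.8 CPM, and the ratios were 16.7 (12.5 to 22.6) and 15.4 (11 to 22.3). CMZ-like cells had 12 and 15.3 CPM and mesenchyme-like cells 65.8 and 62.2 CPM. The ligand and its co-receptor Nrp1 were thus both higher in RGC-like cells than in any other neural retinal class. Sema3e, which binds Plxnd1, was at 3.26 and 3.68 CPM (26 and 38 UMIs), with a ratio of 23.6 (7.25 to 122) in the pigmented library and at least 15.8-fold higher in the albino library. Sema3f was at 16.3 and 13.3 CPM against 13 and 12.2 CPM, and it was highest in photoreceptor-like cells, at 30.5 and 30.4 CPM. Sema3b, Sema3c, Sema3d and Sema3g had at most 9 UMIs per library in RGC-like cells.

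Membrane semaphorins went in both directions. Sema6d was at 24.2 and 27.7 CPM in RGC-like and 0.414 and 0.311 CPM in RPC-like cells, with ratios of 58.5 (30.2 to 129.9) and 88.9 (34.3 to 329), and amacrine or horizontal-like cells had 18.1 and 25.4 CPM. Sema6c was at 38.7 and 34.2 CPM against 4.32 and 3.27 CPM, with ratios of 8.94 and 10.5. Sema6b was at 8.41 and 5.42 CPM against 0.506 and 0.156 CPM, but it was already at 6.59 and 5.08 CPM in neurogenic-like cells. Sema4g had ratios of 3.49 and 3.93, Sema4f of 3.59 and 5.44 and Sema7a, which a lipid anchors to the membrane, of 18.2 and 12.8. Sema6a was near one level in both classes, at 60.2 and 62.5 CPM in RGC-like and 54.7 and 55.8 CPM in RPC-like cells, a small excess that the scaling without mitochondrial and ribosomal protein genes turns around.

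Sema4d and Sema5b lay on the progenitor side. Sema4d was at 2.26 and 1.55 CPM in RGC-like and 12.8 and 10 CPM in RPC-like cells, with ratios of 0.176 (0.103 to 0.283) and 0.154 (0.0856 to 0.26). Sema5b had 0 and 2 UMIs in RGC-like and 82 and 48 in RPC-like cells. Sema4b and Sema4c had ratios of 1.35 and 1.66 and of 1.75 and 1.77, short of 2. For Sema5a the ratios were 1.04 (0.762 to 1.39) and 0.826 (0.624 to 1.09), whose intervals included 1, and that class mean covered a large difference between the RGC-like clusters.

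With neurogenic-like cells as the reference 32 members could be tested, of which 13 were higher and 0 lower in RGC-like cells of both libraries, where 12.3% and 12.4% of all 12063 genes were. The 13 were Sema3a, Sema3e, Sema4a, Sema4f, Sema4g, Sema6c, Sema6d, Sema7a, Nrp1, Plxna3, Robo2, Unc5c and Ntn3. Nrp1 had ratios of 58.5 (33.2 to 114) and 95.8 (43.8 to 262), Sema6d of 9.25 (6.31 to 14) and 12.3 (7.43 to 21.8) and Sema3a of 6.16 (4.82 to 7.95) and 5.9 (4.42 to 8.03). Dcc, Robo1, Slit1, Slit2 and Sema6b, higher than in progenitors, were not past 2 here in both libraries. Sema4a rested on 15 and 30 UMIs in RGC-like and 9 and 3 in neurogenic-like cells.

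RGC-like cells fell into 2 clusters, ordered by the summed level of the neurofilament genes Nefl, Nefm and Ina and of Sncg, which accumulate in maturing ganglion cells. The cluster called earlier here held 357 and 409 cells, with Atoh7, the gene that primes ganglion cell fate, at 1863 and 1374 CPM. The later cluster held 192 and 278 cells, with Atoh7 at 79.1 and 97.8 CPM and the growth cone gene Gap43 at 3577 and 3294 CPM, against 1420 and 1610 CPM in the earlier one. The ganglion cell markers Pou4f2 and Isl1 were lower in the later cluster. Pou4f2 stood at 84 and 86.6 CPM there, against 291 and 258 CPM. Isl1 stood at 694 and 710 CPM, against 1422 and 1331 CPM. No time was measured, so the order is one of expression. Of 27 members tested, 5 were at least 1.5 times higher in the later cluster in both libraries and 3 were at most 1/1.5 as high. Of all 10512 genes tested 8% were higher and 5.61% were lower.

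Dcc and Nrp1 took opposite courses between the clusters. Dcc stood at 355 and 312 CPM in the earlier cluster and at 32 and 53.2 CPM in the later one, with ratios of 0.0902 (0.0732 to 0.11) and 0.17 (0.149 to 0.194). At equal depth 75.4% and 75.3% of cells of the earlier cluster had a Dcc UMI, against 14.6% and 19% of the later one. Nrp1 stood at 24.4 and 42 CPM in the earlier and at 110.2 and 127 CPM in the later cluster, with ratios of 4.52 (3.65 to 5.63) and 3.02 (2.6 to 3.53). An Nrp1 UMI was found at equal depth in 10.9% and 18.9% of cells of the earlier and 41.1% and 48.2% of cells of the later cluster. Robo2 stayed near one level, at 139 and 146 CPM and at 160.0 and 158 CPM.

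Sema5a, low in the earlier cluster at 1.27 and 1.43 CPM, stood at 17.5 and 17.1 CPM in the later one, with ratios of 13.8 (5.96 to 39.2) and 12 (5.79 to 28.6). Its log2 ratio nearest 0 in the libraries, 3.43, became 1.254 with at most 5% mitochondrial UMIs per cell and 1.47 at a Leiden resolution of 1.5, where it had too few UMIs to be called. Sema3a had ratios of 2.3 (1.84 to 2.89) and 2.14 (1.76 to 2.61) and Sema6d of 1.92 (1.43 to 2.59) and 3.58 (2.72 to 4.74), so ligands of both semaphorin kinds were higher in the later cluster. Sema3f was lower there, with ratios of 0.622 (0.416 to 0.915) and 0.54 (0.367 to 0.783). It was not called with at most 5% mitochondrial UMIs, without removal of doublets or at a resolution of 1.5, where its log2 ratio nearest 0 was −0.45, −0.05 and −0.46. The calls of Sema4f, higher, and Ntn4, lower, rest on few UMIs, with ratios of 1.85 (0.779 to 4.5) and 1.57 (0.766 to 3.3) for Sema4f and 0.66 (0.369 to 1.14) and 0.483 (0.297 to 0.766) for Ntn4. The interval included 1 in both libraries for Sema4f and in the pigmented library for Ntn4. In the pigmented library Slit1 had a ratio of 1.02 (0.593 to 1.73) and in the albino library of 2.48 (1.58 to 3.97), a difference that was not tested.

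**Figure D3:**
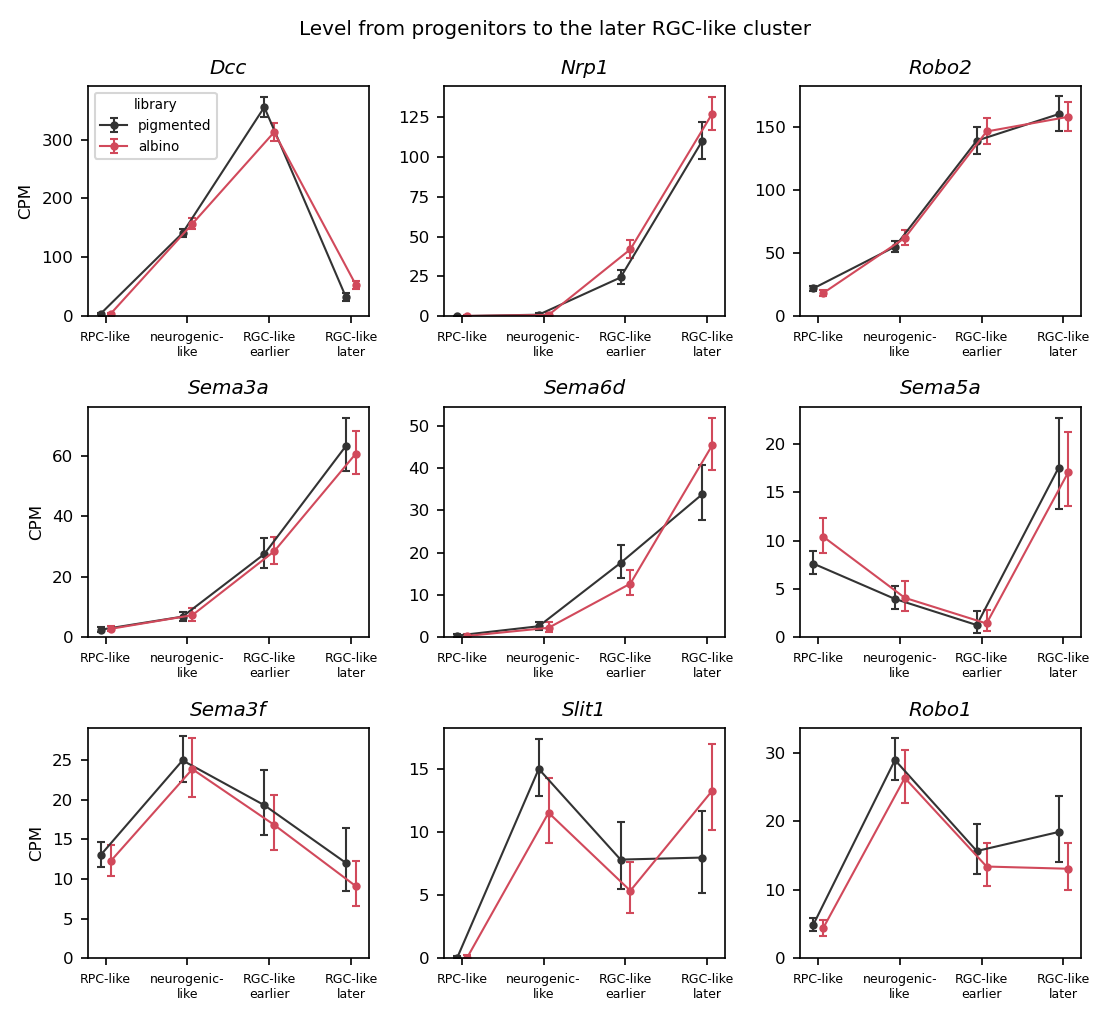
Level in CPM, with 95% exact Poisson intervals, of 9 guidance genes in RPC-like cells, neurogenic-like cells and the earlier and later RGC-like cluster, in the pigmented and the albino library. Dcc is highest in the earlier cluster, at 355 and 312 CPM, Nrp1, Sema3a, Sema6d and Sema5a are highest in the later one, and Robo1 is highest in neurogenic-like cells.

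These counts depend on which cells form the ends of the order. Without removal of doublets a further cluster of 182 cells, led by Tmem267, Sncg and Npy, became the lowest of 3, and 13 members were higher and 0 lower. The log2 ratio of Dcc nearest 0 in the libraries was then −0.175, not past the threshold. At a Leiden resolution of 1.5 the upper end was a cluster of 87 cells led by Tbx5, and 1 member was lower. No share of all genes stands beside the counts for these changed ends, so they are descriptions only. In an alternative added after the values were seen, the 1236 RGC-like cells were divided into 4 equal bins by their summed share of Nefl, Nefm, Sncg and Ina, with 80, 123 and 213 cells within 10% of the 3 limits between them. Between the top and bottom bin 5 members were higher and 4 lower, where 9.84% and 8.66% of all 9318 genes tested were. Of these members 4 and 3 were the same genes as between the clusters.

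Along the bins, from lowest to highest, Dcc stood at 452 and 433, 299 and 281, 102 and 131, and 37.7 and 57.2 CPM. Nrp1 stood at 2.65 and 7.3, 20.4 and 50.6, 97.9 and 99.3, and 112 and 127 CPM. The 2 gradients therefore ran the same way in both libraries, down for Dcc and up for Nrp1. Sema5a had 0 and 0.608 CPM in the lowest and 17.2 and 17.4 CPM in the highest bin. The albino over pigmented ratio of Nrp1 was 2.76 (0.959 to 8.96) and 2.48 (1.68 to 3.78) in the 2 lower bins and 1.01 (0.844 to 1.22) and 1.13 (0.96 to 1.33) in the upper ones. For Dcc it was 0.958 (0.869 to 1.05) and 0.938 (0.834 to 1.06) in the lower bins and 1.29 (1.08 to 1.53) and 1.52 (1.16 to 2) in the upper ones. The interval thus excluded 1 in bin 2 for Nrp1 and in bins 3 and 4 for Dcc. Other members also had such intervals, some on both sides of 1. Sema3f had 2.01 (1.11 to 3.86) in bin 2 and 0.507 (0.264 to 0.959) in bin 3. Ntn3 had 0.197 in bin 1 and 4.75 in bin 4. The share of all genes with such an interval was not counted, so these ratios are descriptions only.

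**Figure D4:**
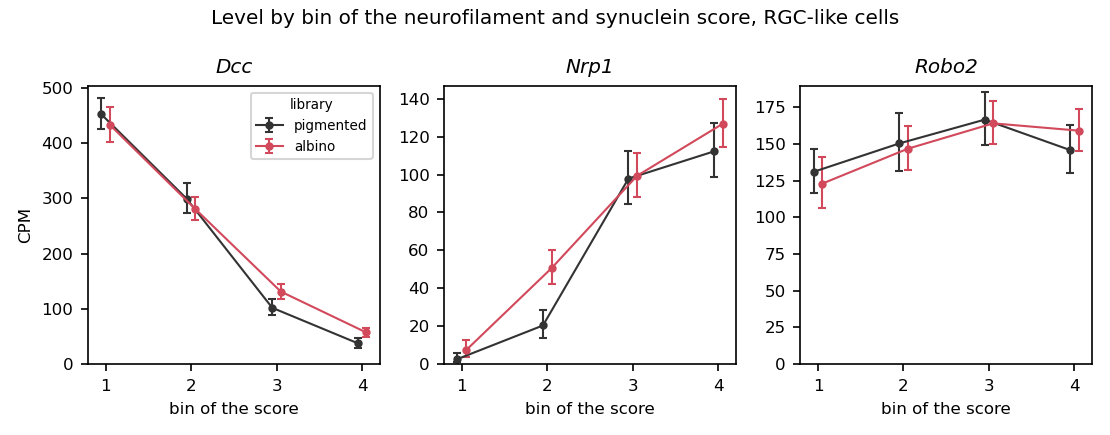
Level in CPM, with 95% exact Poisson intervals, in RGC-like cells of the pigmented and the albino library by bin of the summed share of Nefl, Nefm, Sncg and Ina UMIs, from lowest (1) to highest (4). Dcc goes from 452 and 433 CPM to 37.7 and 57.2 CPM and Nrp1 from 2.65 and 7.3 CPM to 112 and 127 CPM, while Robo2 starts at 131 and 123 CPM and ends at 146 and 159 CPM.

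Between the libraries most members were close to level in RGC-like cells taken as a whole. Of the 34 members that reached 20 UMIs in both libraries together, 0 were at least 1.5 times higher in the albino library with an interval above 1, and 1 was at most 1/1.5 as high with an interval below 1. Of all 11960 genes tested 1.07% were higher and 1.6% were lower. The median log2 ratio of the members was 0.06 and that of all genes −0.01, with 23 members above a ratio of 1 and 11 below. The 1 member was Sema6b, at 8.41 and 5.42 CPM (67 and 56 UMIs), with a ratio of 0.645 (0.444 to 0.934). It was not called with cells thinned to 1 depth, with every cell weighted equally, without removal of doublets or within the later cluster.

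Nrp1 and Dcc were the other members whose interval excluded 1. For Nrp1, with 59.4 and 81 CPM, the ratio was 1.37 (1.22 to 1.53), and for Dcc, with 223 and 194 CPM, it was 0.867 (0.813 to 0.925). The later cluster, low in Dcc and high in Nrp1, made up 35.0% of pigmented and 40.5% of albino RGC-like cells. In the earlier cluster the ratio was 1.72 (1.37 to 2.17) for Nrp1 and 0.88 (0.823 to 0.942) for Dcc. In the later cluster it was 1.15 (1.01 to 1.32) for Nrp1 and 1.66 (1.32 to 2.11) for Dcc, so Nrp1 was above 1 in both and Dcc lay on opposite sides of 1. Within the earlier cluster Nefl, Nefm, Sncg and Ina summed to 4990 and 6142 CPM and Atoh7 stood at 1863 and 1374 CPM, and the part of this difference in the ratios of Nrp1 and Dcc was not tested beyond the bins. Robo2 had an albino over pigmented ratio of 1.03 (0.952 to 1.11) and Sema3a of 1.03 (0.889 to 1.19), both with intervals that include 1.

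**Figure D5:**
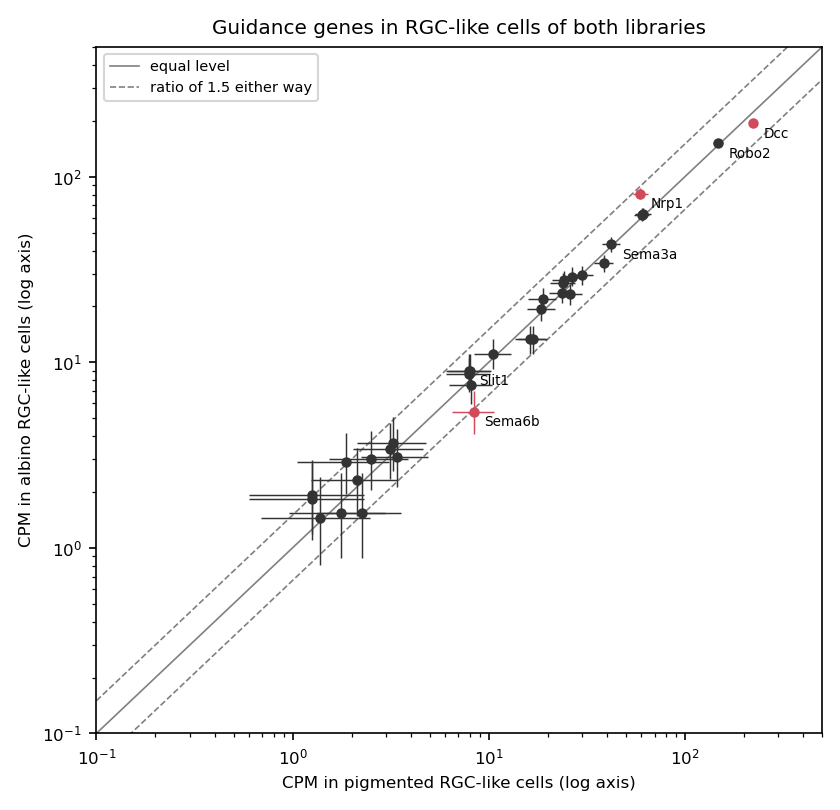
Level of the 34 tested members in albino against pigmented RGC-like cells, in CPM on log axes, with 95% exact Poisson intervals, and with dashed lines at a ratio of 1.5 either way. Red points are Nrp1, Sema6b and Dcc, whose ratio interval excludes 1, and of these only Sema6b, at 8.41 and 5.42 CPM, lies past a dashed line.

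Unc5b marked the margin of the retina. It was at 37.1 CPM (33.8 to 40.7) and 42.7 CPM (37.4 to 48.6) in CMZ-like cells, against 7.77 and 14.2 CPM in RPC-like cells. Of 27 members tested between these classes 3, Unc5b, Unc5c and Sema3a, were at least 2 times higher in CMZ-like cells of both libraries and 2, Unc5a and Plxnd1, at most 0.5 times as high, where 2.36% and 2.45% of all genes were. The ratios of Unc5b were 4.78 (4 to 5.73) and 3.02 (2.47 to 3.68), those of Unc5c 3.24 (2.55 to 4.14) and 4.31 (2.87 to 6.54) and those of Sema3a 4.73 (3.45 to 6.57) and 5.45 (3.65 to 8.3). Unc5a had 1 and 1 UMIs in CMZ-like cells against 124 and 84 in RPC-like cells. Among the neural retinal classes the Unc5 genes thus differed, with Unc5b highest in the margin, Unc5c in ganglion cells, and Unc5a in progenitors, beside 5.43 and 1.59 CPM (6 and 1 UMIs) in amacrine or horizontal-like cells. Between the libraries 0 of 29 tested members were called in CMZ-like cells, where 1.2% of all genes were higher and 1.44% lower, and 0 had an interval excluding 1. In RPC-like cells 1 of 30 tested members was higher and 1 lower, where 0.87% and 0.97% of all genes were. These were Unc5b, with an albino over pigmented ratio of 1.82 (1.47 to 2.26), and Unc5c, with 0.617 (0.416 to 0.898). Sema5a also had an interval above 1 there, and Sema4d, Plxnb2 and Robo2 had intervals below 1, without being called. No share of all genes stands beside these intervals.

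Outside the retina mesenchyme-like cells held several members at higher levels than any neural retinal class did. Besides Nrp2, Slit3 and Ntn1 they had Sema5a at 66.4 and 68.1 CPM, Robo1 at 57.2 and 77.1 CPM and Ntn3 at 19.7 and 14.3 CPM. Between the libraries 0 of 32 tested members were higher there and 4 lower, where 2.29% and 4.22% of all genes were. Plxnd1 had 34.7 and 3.59 CPM and a ratio of 0.103 (0.0371 to 0.232), and Sema6d had 12.9 and 1.79 CPM. Nrp2 had a ratio of 0.646 (0.52 to 0.799) and Robo2 of 0.567 (0.404 to 0.784). Robo1, with 1.35 (1.07 to 1.7), lay above 1 without being called. In the same cells 7 of 7 endothelial markers were detected in both libraries and summed to 247 and 102 CPM, and the erythroid list summed to 1333 and 62.2 CPM. The macrophage list of 8 genes, with C1qa, C1qc and Csf1r at 0 in both libraries, summed there to 224 and 1.2 CPM, and the part of these lists in the ratios was not tested. Plxnb2 was at 185 and 150.4 CPM in 26 and 29 macrophage-like cells, its highest class.

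The wider guidance machinery was followed in a list of 47 partners and signalling proteins. Of 45 tested between RGC-like and RPC-like cells 18 were higher in both libraries and 6 were lower, where 15.2% and 20.8% of all genes were. All 5 collapsin response mediators, which pass on semaphorin signals, were among the 18, with Crmp1 at 433 and 459.7 CPM in RGC-like and 6.62 and 8.02 CPM in RPC-like cells. Srgap1, which acts below Robo receptors, was at 93.5 and 87.1 CPM against 7.08 and 7.01 CPM. L1cam, an adhesion partner of Nrp1, was at 82.6 and 90.3 CPM against 0.782 and 1.64 CPM. Dscam, a further netrin receptor, was at 22.5 and 28.3 CPM against 0.414 and 0.234 CPM. Kdr, the vascular growth factor receptor that Nrp1 can join, was among the 6, at 2.76 and 1.74 CPM against 41.9 and 33.1 CPM.

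Between the RGC-like clusters 9 of 39 tested list genes were higher in the later one and 0 lower, where 8% and 5.61% of all genes were. Rgma, a repellent read by neogenin, had ratios of 10.2 (4.3 to 29.3) and 26.8 (8.78 to 133). These rest on few UMIs in the earlier cluster, where Rgma stood at 1.27 and 0.537 CPM. L1cam had ratios of 2.5 and 2.01. Flrt2, a Unc5 ligand that was lower in RGC-like than in RPC-like cells, was higher in the later than in the earlier cluster, with ratios of 3.78 and 2.99. Between the libraries in RGC-like cells 0 of 44 were higher and 1, Mical1, was lower, where 1.07% and 1.6% of all genes were, so the list lay near the background. The ratio of Mical1 was 0.629 (0.466 to 0.848).

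Receptor genes were also read cell by cell in the 535 and 650 RGC-like cells thinned to 5870 UMIs. Dcc and Robo2 were found together in 30.1% (26.2 to 34.2) and 29.4% (25.9 to 33.1) of cells, where the products of their separate shares are 29.7% and 29.4%. Dcc and Unc5c were found together in 4.11% and 6.31%, with products of 5.29% and 6.98%. Nrp1 and Plxna1 were found together in 1.87% and 3.85%, with products of 2.19% and 4.29%. For each of these pairs the product lay within the exact interval of the observed share in both libraries.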

How the data were processed

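Single cells were profiled by droplet RNA sequencing in 1 pigmented and 1 albino library. The authors deposited raw UMI counts per gene and cell barcode. Per the submitters' processing notes the reads were counted by Cell Ranger 2.1.1 on mm10, but per the file headers by version 5.0.1, a conflict that could not be settled here.

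Barcodes with under 500 genes (134 pigmented, 110 albino) or over 10% mitochondrial UMIs (188, 136) and doublets called by Scrublet in each library (214, 72) were left out. Counts were log-normalised and clustered with Scanpy 1.11.5 and leidenalg 0.10.2 on Python 3.11.15: 2000 variable genes without mitochondrial, ribosomal protein, haemoglobin, sex-linked and guidance genes, 30 principal components, 15 neighbours, Leiden resolution 1, no batch correction. A cluster took the name of 1 of 15 marker lists with the highest mean log2 fold (pseudocount of 10 CPM, a margin of 0.3 over the next list, at least 3 markers in at least 10% of cells).

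UMIs were summed per class and library. Levels carry exact Poisson intervals, ratios exact conditional intervals and shares of cells exact Clopper-Pearson intervals (SciPy 1.17.1). PCR duplicates are collapsed by UMI, and intervals cover counting error only. A ratio was called at 2 or 0.5 between classes, and at 1.5 or 1/1.5 between libraries or clusters, with at least 20 UMIs. The ratio intervals were tried on simulated Poisson counts, the model they assume, and the other steps were not part of that trial. Members and lists were chosen with earlier results of these data known. Members with at least 50 UMIs in RGC-like cells over both libraries are described, and others for another class with at least 50 UMIs. Alternatives covered filters, doublets, clustering, scaling, minimum counts, thresholds, reference classes and thinning. Gene positions are those of GENCODE M21 on GRCm38.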

Additional observations from a re-analysis of the deposited data

Results flagged for a closer look

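Dcc, the attractive netrin receptor, lay on opposite sides of an equal level between the libraries in different cells, each time with an interval that excludes 1. Its albino over pigmented ratio was 1.11 in neurogenic-like cells and 0.867 in RGC-like cells. Inside the RGC-like class it was 0.880 in the earlier cluster 3 and 1.66 in the later cluster 7. In the bins by summed share of Nefl, Nefm, Sncg and Ina the Dcc ratio was 0.958 (0.869 to 1.05) and 0.938 (0.834 to 1.06) in the lower bins, with intervals that included 1. In the upper bins it was 1.29 (1.08 to 1.53) and 1.52 (1.16 to 2). The later cluster, low in Dcc, made up 35.0% of pigmented and 40.5% of albino RGC-like cells, and its part in the RGC-like ratio was not tested. With 1 library per group the differences between these ratios were not tested.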

How the results depend on the processing

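The 14 alternatives to the comparison with RPC-like cells included other reference classes. Under them the count of members higher in RGC-like cells was between 11, the value with CMZ-like cells as reference, and 21. The count lower became 0 with neurogenic-like and 2 with CMZ-like cells as reference. Apart from the neurogenic-like reference, no share of all genes stands beside these alternative counts. With neurogenic-like cells the log2 ratios of Robo1 and Slit1 reversed to −0.78 and −0.36. With CMZ-like cells as reference the values of Plxnd1 and Unc5a changed sign, to 0.39 and 1.53, but neither had enough UMIs to be tested. Plxnd1 had 4 and 3 UMIs in RGC-like and 5 and 3 in CMZ-like cells. Its ratios, 1.26 (0.249 to 5.84) and 0.526 (0.0704 to 3.92), lay on opposite sides of 1. Unc5a had 5 and 10 UMIs in RGC-like and 1 and 1 in CMZ-like cells. Between libraries the count of members higher in albino RGC-like cells became 3 with every cell weighted equally, 1 in cells with Xist and no Y-linked UMI, 1 at a lower fold threshold, and 2 within cluster 3 and 2 within cluster 7. The count lower became 2 with a higher minimum of genes per cell, 2 without removal of doublets, and 0 with every cell weighted equally, within cluster 7 or in thinned cells. Within cluster 3, 1.33% of all genes were higher and 1.72% lower, and within cluster 7, 1.45% and 1.31% were. No share of all genes stands beside the other alternative counts between libraries. The median log2 ratio became −0.0498 within cluster 3. Between RGC-like clusters the count higher became 8 with a higher minimum of genes per cell, 13 without removal of doublets and 3 at a fold of 2. The count lower there became 1 at 5% mitochondrial UMIs or less, 0 without removal of doublets, 1 at resolution 1.5, 5 with no minimum count and 1 at a fold of 2. No share of all genes stands beside these cluster counts. For Dcc the log2 ratio of later over earlier cluster went from −2.55 to −0.175 without removal of doublets, where a further cluster of 182 cells became the lowest. Of 413 values of single genes under alternatives 360 kept their direction and side of the threshold, 49 kept their direction without being called and 4 reversed. Of the 49, 14 fell under the minimum of UMIs and 35 short of the fold or its interval. Apart from these changed ends of the order, the causes were not tested. No paired analysis was possible because each group is 1 library. Genes with few UMIs in RGC-like cells, such as Robo3 (10 and 20), are limited by depth.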

Other observations

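Photoreceptor-like cells consisted of 2 clusters that differed in guidance genes in both libraries. In the cluster led by Gngt2, Pdc and Crx Robo2, the Slit receptor, stood at 449.7 CPM (406 to 497) and 449 CPM (389 to 516), against 228 and 189.9 CPM in the other photoreceptor-like cluster. Plxnb2, a semaphorin receptor, stood at 84.8 and 80.4 CPM against 38.8 and 45.2 CPM, and Sema3f at 43.6 and 44.7 CPM against 26.2 and 26.2 CPM. Dcc stood at 214 and 185 CPM against 176 and 191 CPM. These clusters were chosen for mention after their values were seen.

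An unnamed cluster of 10 and 13 cells held 25 UMIs of Nrp2 in the pigmented library, of which 96% came from 1 cell, and 1 UMI in the albino library.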
